A study of Mus musculus with 8 samples.

Results

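The 45 genes described here encode the proteins that make ribosomes in the nucleolus. They were taken as a list of gene symbols, chosen with earlier results of these data known, and looked up in the array's gene annotation. The list holds 3 proteins of box C/D small nucleolar ribonucleoproteins (snoRNPs), 4 of box H/ACA snoRNPs, 3 RNA polymerase I subunits, 6 nucleolar organisers and rRNA gene regulators, 14 factors of small subunit assembly and 15 of large subunit assembly. A probe set of their own was found for 42 of the 45, among 17097 measured genes. Mybbp1a and Gnl3 had no probe set listed, the only probe set of Tsr1 is shared with Srr, and these 3 were not analysed here.

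Ribosome production starts when RNA polymerase I transcribes the rRNA genes into a long precursor. Box C/D and box H/ACA snoRNPs then modify that precursor, by ribose methylation and by pseudouridylation, while the small subunit processome and the large subunit assembly factors fold and cut it and load the ribosomal proteins. The pathway is among the largest energy costs of a growing cell, and many of its genes are known targets of the transcription factor MYC.

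The 8 arrays came from mouse skin squamous cell carcinoma (SCC) cells sorted as positive for α6-integrin and CD34, a surface phenotype used for cutaneous cancer stem cells. The tumours arose in K14-HPV16 mice, in which a keratin 14 promoter drives human papillomavirus 16 genes in basal keratinocytes, either spontaneously or after DMBA-TPA treatment, and the strain is given as FVB/C57/Bl6. Pieces were grafted orthotopically into immunodeficient (nude) mice and passed on serially, and each lineage changed over passages from well differentiated (WD-SCC) to poorly differentiated tumours (PD-SCC, written PD/S-SCC in the sample titles). Lineage OT7 has 2 arrays of each stage, OT14 has 1 of each and OT15 has 1 of each, so that both stages have 4 arrays from 3 lineages. All groups share the host, the sort and the removal of haematopoietic and endothelial cells before it. Passage numbers, animal ages, which lineages were spontaneous and whether animals were pooled were not given in the sources used here. Values are deposited log2 intensities, so that a difference of 1 is a doubling, and array values are given throughout in the order OT7, OT7, OT14, OT15. Stage differences are PD-SCC minus WD-SCC from limma with the lineage as a block, and p-values are adjusted over all 17097 genes with a threshold of 0.05. With 4 residual degrees of freedom the p-values measure the spread left after the lineage block, moderated by limma over all genes. Part of that spread is between the OT7 arrays of a stage. The p-values therefore do not measure the spread between lineages alone.

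The stages differed in much besides ribosome production. The log2 summed level of 9 keratinocyte markers was 12.39 to 13.20 on the WD-SCC arrays and 8.76 to 9.57 on the PD-SCC arrays, 6 of the 9 fell, none rose and Cdh1 was above the control probe sets on no PD-SCC array. Krt5 fell by 7.10 and Krt14 fell by 5.01, whereas the sort markers Itga6 (-0.30, adjusted p = 0.796) and Cd34 (1.67, adjusted p = 0.241) did not pass the threshold. On the OT15 WD-SCC array Cd34 was 3.58, below that array's highest unspiked control of 4.37, so its Cd34 RNA goes against its sort label. Itga6 there was 5.32, above that control but the lowest of the 8 arrays. The surface proteins used for the sort were not measured by the arrays. Without that array, which leaves OT15 no stage comparison, 6 members rose and 842 of all 17097 genes did. The median was then 0.55 over members and -0.05 over all genes. The summed level of 8 blood markers was 10.10 to 12.55 in WD-SCC and 6.79 to 7.64 in PD-SCC. The 3 of 8 that were lower were S100a8 (-6.14), S100a9 (-5.95) and Cd68 (-2.79). The mean WD-SCC level was 10.55 for S100a9, 10.04 for S100a8 and 7.76 for Cd68. The WD-SCC sum therefore rests mostly on S100a9 and S100a8, and whether their RNA came from blood cells was not tested. Ptprc, Adgre1 and Itgam were not above the controls on any array, so the sum does not track these 3 genes. The summed level of 6 endothelial markers was 6.79 to 10.39 and 6.38 to 8.64, with 1 of 6 lower (Cldn5, -1.19) and Tek and Vwf not above the controls. All 6 differences were below 0, with a median of -1.21. Cdh5 read 9.80 on the OT14 WD-SCC array and 8.39 on the OT15 PD-SCC array. For 8 fibroblast markers the sum was 8.90 to 12.90 and 9.77 to 11.61, with 1 of 8 lower (Thy1, -3.92). Pdgfra was not above the controls in WD-SCC and Lum not in PD-SCC. The highest unspiked control was 3.82 to 4.37 on WD-SCC arrays and 3.61 to 3.81 on PD-SCC arrays, a stricter limit in WD-SCC. Pdgfra reached 3.84 on an OT7 WD-SCC array, above the limit of every PD-SCC array. The nonspecific probes of highest GC content read 8.002 to 8.53 on WD-SCC arrays and 6.66 to 7.08 on PD-SCC arrays. The part of these differences in the members' results was not tested, and in bulk RNA fewer cells of a type and less RNA per cell cannot be told apart.

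Promoter sequences are shown for 4 members as examples of promoters that hold, upstream of the start, the letters CACGTG (the canonical E-box) or CGCGTG (a noncanonical one), 2 short motifs that MYC-MAX dimers can bind. The RefSeq promoters of GRCm38.p6, from 250 bases before to 50 bases after the start, gave 42 promoters of 38 of the 45 members. The 250 bases before the start are printed below in the direction of transcription, with the motif in capitals. Those of Polr1c (chr17:46248046-46248295, minus strand) and Nolc1 (chr19:46075597-46075846, plus strand) belong to members that rose. They were the only ones with an upstream match among the 6 risen members in the promoter table. Those of Nop2 (chr6:125131633-125131882, plus strand) and Imp4 (chr1:34439579-34439828, plus strand) belong to members that did not pass. Among the 42 promoters of members, only these 2 held CACGTG upstream. Upstream CGCGTG matches not shown were in Nip7, Bysl, Pes1 and Mybbp1a.
Polr1c: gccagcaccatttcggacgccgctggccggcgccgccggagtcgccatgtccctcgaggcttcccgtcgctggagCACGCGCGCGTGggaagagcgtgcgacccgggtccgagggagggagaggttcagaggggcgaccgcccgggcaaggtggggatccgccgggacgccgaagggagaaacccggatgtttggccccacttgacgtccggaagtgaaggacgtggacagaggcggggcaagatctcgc
Nolc1: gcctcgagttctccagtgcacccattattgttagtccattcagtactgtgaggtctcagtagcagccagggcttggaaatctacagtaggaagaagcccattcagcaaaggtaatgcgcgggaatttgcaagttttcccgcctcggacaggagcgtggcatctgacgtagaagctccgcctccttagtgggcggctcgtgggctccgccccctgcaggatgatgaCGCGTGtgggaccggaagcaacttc
Nop2: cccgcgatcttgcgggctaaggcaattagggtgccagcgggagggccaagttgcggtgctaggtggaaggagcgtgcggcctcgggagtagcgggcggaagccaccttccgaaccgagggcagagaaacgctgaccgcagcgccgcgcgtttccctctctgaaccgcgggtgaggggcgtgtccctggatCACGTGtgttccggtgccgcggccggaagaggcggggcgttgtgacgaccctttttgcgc
Imp4: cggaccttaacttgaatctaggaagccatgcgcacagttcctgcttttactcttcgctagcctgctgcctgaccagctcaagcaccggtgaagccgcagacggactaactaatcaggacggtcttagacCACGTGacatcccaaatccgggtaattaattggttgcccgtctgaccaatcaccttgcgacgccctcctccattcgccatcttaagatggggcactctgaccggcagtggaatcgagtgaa

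In Polr1c the capitals join a pair of adjacent CGCGTG matches, 1 on each strand, whose first bases lie at -175 and -169 from the start. In Nolc1 CGCGTG begins at -25. CACGTG begins at -60 in Nop2 and at -121 in Imp4. Counting both strands, CACGTG was in 5 of 39 promoters of measured members (12.8%) and in 8.69% of 17065 promoters of all measured genes. With the 3 members not measured it was in 7 of 42 (16.7%), against 7.15% of all 32851 promoters in the table. CGCGTG was in 11 of 39 (28.2%) against 13.9%, and in 12 of 42 (28.6%) against 9.27%. Of the 10 members that rose, 6 were in the promoter table, 1 of them with CACGTG (Utp20, downstream of its start) and 2 with CGCGTG. The GC content was 58.8% in the members' promoters, 58.4% in those of measured genes and 53.8% in all promoters of the table. These are matches of letters, and binding was not measured.

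Because the members were chosen with earlier results of these data known, their shares beside those of all genes are descriptive only. At the level of the whole list, 10 of 42 measured members (23.8%) rose in PD-SCC and none fell. Among all 17097 genes 7.78% rose and 4.81% fell. The members that rose were Fbl, Polr1c, Tcof1, Npm1, Nolc1, Utp20, Rrp1b, Rrs1, Ddx18 and Ebna1bp2, by 1.45-fold (Ebna1bp2) to 3.40-fold (Polr1c). The median stage difference was 0.62 over the members and -0.06 over all genes, and 37 of 42 members (88.1%) had a difference above 0, against 42.2% of all genes. With cyclic loess normalisation the member median was 0.31, 5 members rose, and of all genes 799 rose and 930 fell. In 27 members (64.3%) the difference was above 0 in each of the 3 lineages, against 22.2% of all genes, and in none was it below 0 in each. In 10 members (23.8%) all 4 PD-SCC arrays lay above all 4 WD-SCC arrays, against 10.8% of all genes. Bop1 and Nop58 were in that group without passing the threshold, and Tcof1 and Ebna1bp2 passed it with overlapping stages. Dim genes raise the number tested. The highest unspiked control was 3.82 to 4.37 on WD-SCC arrays and 3.61 to 3.81 on PD-SCC arrays. A gene could therefore pass a filter on it through PD-SCC alone. The 9878 genes above the control probe sets on at least 4 arrays had a median of 0.12. Among them 12 of 41 members rose (29.3%), against 16.3% of those genes. The count was 1 with the OT7 arrays averaged within each stage and 0 with OT14 and OT15 alone, where 21 of 42 members and 21.7% of all genes had an unadjusted p under 0.05 in limma and the median was 0.73.

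**Figure D1:**
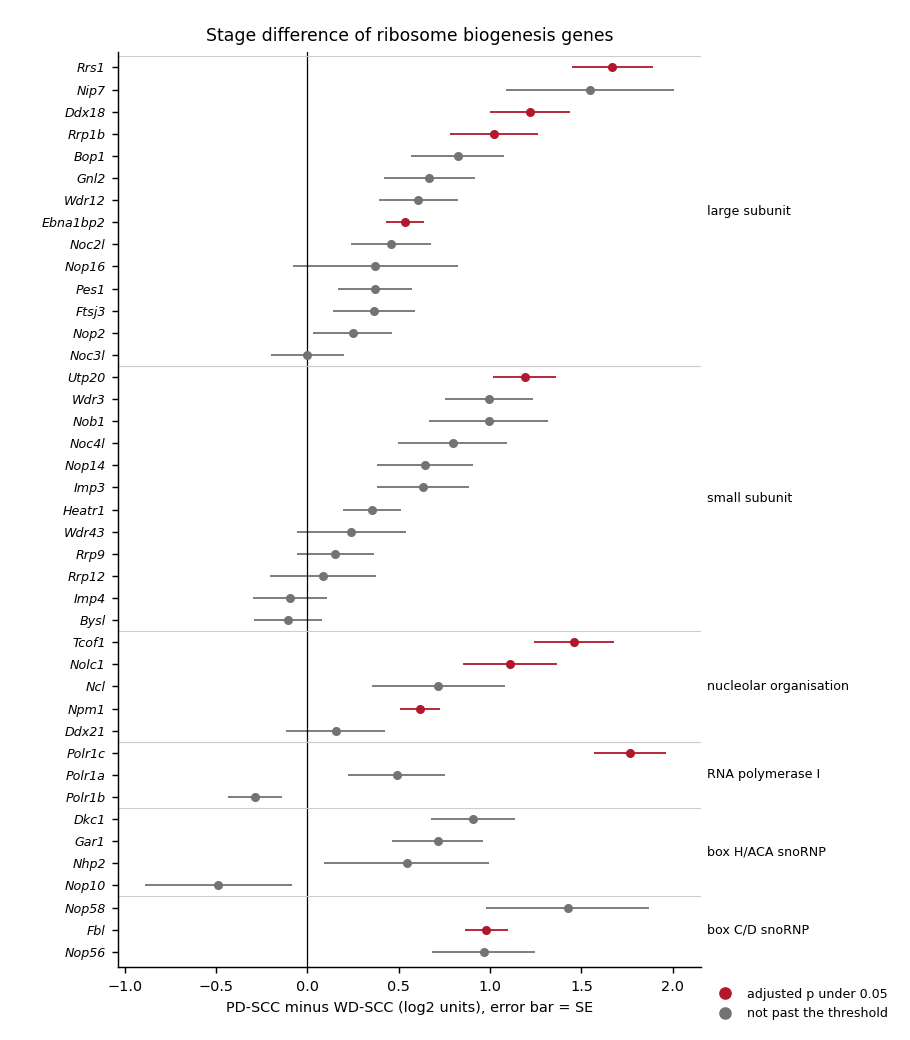
Stage difference (PD-SCC minus WD-SCC, log2 units) of the 41 members above the control probe sets on at least 1 array, ordered within their roles, with the standard error as a bar. Red points are the 10 members past the adjusted threshold, all to the right of 0, and the lowest grey point is Nop10 at -0.49.

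RNA polymerase I transcribes the rRNA genes, and 1 of its 3 listed subunits rose (33.3%, against 7.78% of all genes). Polr1c encodes a small assembly subunit that RNA polymerase III also uses, and it measured 7.57, 7.49, 8.10 and 6.99 on the WD-SCC arrays and 9.45, 8.73, 9.89 and 9.15 on the PD-SCC arrays. The lowest PD-SCC value, from OT7, lay above the highest WD-SCC value, from OT14. Polr1c rose by 1.77 ± 0.20 (SE, n = 4 arrays each; adjusted p = 0.0072), with 1.56 in OT7, 1.79 in OT14 and 2.15 in OT15. Its dimmer probe set differed by 0.71 and did not pass (adjusted p = 0.076 over all probe sets), so the size and the call depend on the probe set. Polr1a, the largest catalytic subunit, measured 5.74, 6.04, 5.37 and 5.06 in WD-SCC and 6.49, 7.15, 5.11 and 5.42 in PD-SCC. Only the OT7 PD-SCC arrays lay above every WD-SCC array, and the difference of 0.49 ± 0.27 did not pass the threshold (adjusted p = 0.260). Polr1b, the second largest subunit, was dim, above the controls on 3 arrays of each stage, and differed by -0.29.

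Further RNA polymerase I genes not on the list did not move one way. Of 8 measured, 1 rose (12.5%, against 7.78% of all genes) and 1 fell (12.5%, against 4.81%), with a median of 0.25. Rrn3, the initiation factor that brings the polymerase to the rRNA promoter, rose by 1.67 ± 0.21 (adjusted p = 0.010). Polr1d, a small subunit also shared with RNA polymerase III and a partner of the Polr1c protein, fell by 1.41 ± 0.19 (adjusted p = 0.011), from 8.34, 8.35, 8.99 and 7.84 to 6.73, 6.49, 7.60 and 7.06 with no overlap. Ubtf, the rRNA promoter factor UBF (0.48, adjusted p = 0.174), and Taf1d, a subunit of the selectivity factor SL1 (0.86, adjusted p = 0.223), did not pass the threshold.

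The box C/D snoRNP guides ribose methylation of rRNA, and 1 of its 3 measured proteins rose (33.3%, against 7.78% of all genes). Fbl, fibrillarin, the methyltransferase of the particle, measured 9.97, 10.07, 9.33 and 9.01 in WD-SCC and 11.08, 10.86, 10.10 and 10.26 in PD-SCC. The gap between stages was narrow across lineages, between an OT7 WD-SCC array at 10.07 and the OT14 PD-SCC array at 10.10, but within each lineage PD-SCC was higher. Fbl rose by 0.98 ± 0.12 (adjusted p = 0.0087), and its other probe set differed by 0.94. Nop58, a scaffold protein of the same particle, measured 7.04, 7.13, 5.56 and 4.50 in WD-SCC and 8.16, 7.19, 7.20 and 7.38 in PD-SCC. All PD-SCC arrays lay above all WD-SCC arrays, yet the size varied from 0.60 in OT7 to 2.88 in OT15 and the difference of 1.43 ± 0.45 did not pass (adjusted p = 0.092). Nop56, its partner scaffold, differed by 0.96 (adjusted p = 0.079).

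The box H/ACA snoRNP guides pseudouridylation and also binds telomerase RNA, and none of its 4 proteins passed the threshold. Dkc1, dyskerin, the pseudouridine synthase, measured 7.21, 7.44, 6.71 and 5.77 in WD-SCC and 8.64, 8.18, 6.85 and 7.09 in PD-SCC. The 2 OT7 PD-SCC arrays stood above the rest, and the stages overlapped across lineages (0.90 ± 0.23, adjusted p = 0.059). Gar1 differed by 0.71, Nhp2 by 0.55 and Nop10 by -0.49. Nhp2 and Nop10 had the most uneven stage differences of the 4, with -0.14 in OT7, 0.07 in OT14 and 2.39 in OT15 for Nhp2 and -1.40, 0.63 and 0.21 for Nop10.

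Of the 5 measured nucleolar organisers and regulators, 3 rose (60.0%, against 7.78% of all genes). Tcof1 encodes treacle, which supports rRNA transcription, and measured 5.84, 5.50, 4.63 and 5.03 in WD-SCC and 7.25, 7.35, 6.52 and 5.72 in PD-SCC. The OT15 PD-SCC array fell below an OT7 WD-SCC array, so the stages overlapped while each lineage had the same direction. Tcof1 rose by 1.46 ± 0.22 (adjusted p = 0.015).

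Npm1, nucleophosmin, the abundant chaperone of the granular nucleolus, measured 10.92, 10.76, 10.59 and 10.40 in WD-SCC and 11.44, 11.22, 11.33 and 11.15 in PD-SCC. The stages did not overlap, and Npm1 rose by 0.62 ± 0.11 (adjusted p = 0.024). Its dimmer probe set differed by 2.33, so the size depends on the probe set, and Npm1 also has processed pseudogenes whose transcripts these probes may not separate. Nolc1, the Nopp140 chaperone of snoRNPs, measured 7.66, 8.27, 6.87 and 7.18 in WD-SCC and 8.96, 8.38, 8.30 and 8.78 in PD-SCC. The lowest PD-SCC array lay just above the highest WD-SCC array, and Nolc1 rose by 1.11 ± 0.26 (adjusted p = 0.047). Its other probe sets differed by 0.93 and 0.07, and the call held in 5 of 15 distinct alternatives. Adjusted over all probe sets, neither of these passed in limma (adjusted p = 0.060 and 0.626), and the one used did not either (0.056). Ncl, nucleolin, measured 5.13, 6.03, 5.67 and 6.06 in WD-SCC and 6.45, 5.61, 7.40 and 6.30 in PD-SCC, with overlapping stages and the OT14 PD-SCC array highest (0.72 ± 0.36, adjusted p = 0.234). The RNA helicase Ddx21 differed by 0.15.

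**Figure D2:**
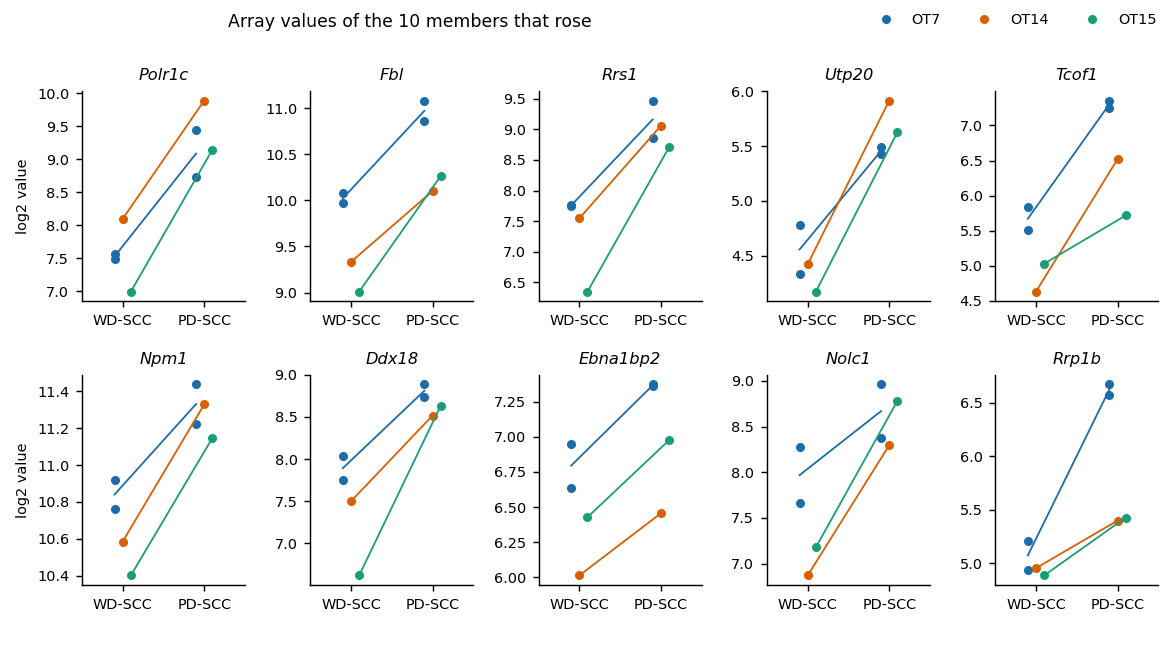
Log2 values on each array of the 10 members that rose, WD-SCC left and PD-SCC right, coloured by lineage, with a line joining the lineage means and a scale of its own for each gene. All lines slope upward, and the stages overlap in Tcof1 and Ebna1bp2.

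Of 13 measured factors of small subunit assembly 1 rose (Utp20), a share of 7.69% that is near the background of 7.78%, and the median was 0.36. Utp20, a large scaffold of the small subunit processome, measured 4.78, 4.33, 4.42 and 4.17 in WD-SCC, where 3 of 4 arrays were above the controls, and 5.43, 5.49, 5.92 and 5.63 in PD-SCC. All PD-SCC arrays lay above all WD-SCC arrays, and Utp20 rose by 1.19 ± 0.17 (adjusted p = 0.013). Wdr3, a beta-propeller protein of the processome, measured 4.98, 4.43, 4.34 and 4.37 in WD-SCC and 6.22, 6.13, 4.89 and 4.85 in PD-SCC. The OT7 PD-SCC arrays stood apart from those of the other two lineages, and the difference of 0.99 ± 0.24 just missed the threshold (adjusted p = 0.052). The nuclease Nob1, which makes the final cut to mature 18S rRNA, differed by 0.99 (adjusted p = 0.103).

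The other small subunit members ran from 0.79 to -0.11. They were Noc4l (0.79), Nop14 (0.65), Imp3 (0.63), Heatr1 (0.36), Wdr43 (0.24), the U3 snoRNP protein Rrp9 (0.15), Rrp12 (0.08), Imp4 (-0.09) and Bysl (-0.11), none past the threshold. Wdr75 was above the controls on no array and has no usable difference, and Rrp12 was above them on 1 WD-SCC and 3 PD-SCC arrays. For Noc4l the other probe sets differed by -0.04 and -0.09 and for Bysl the other probe set differed by 0.37, so these 2 have no settled sign.

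Of 14 measured factors of large subunit assembly 4 rose (28.6%, against 7.78% of all genes), with a median of 0.57. Rrs1, which helps to load the 5S ribonucleoprotein, measured 7.76, 7.76, 7.55 and 6.35 in WD-SCC and 9.47, 8.85, 9.06 and 8.71 in PD-SCC. The OT15 WD-SCC array was far below the others, the lowest PD-SCC value of 8.71 lay above the highest WD-SCC value of 7.76, and Rrs1 rose by 1.67 ± 0.22 (adjusted p = 0.011). Ddx18, an RNA helicase of early large subunit precursors, measured 8.03, 7.75, 7.50 and 6.62 in WD-SCC and 8.89, 8.74, 8.52 and 8.63 in PD-SCC. The stages did not overlap, the PD-SCC arrays lay close together, and Ddx18 rose by 1.22 ± 0.22 (adjusted p = 0.024). Its other probe sets differed by 1.08 and 0.73, neither past the threshold.

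Rrp1b, a nucleolar factor of large subunit assembly, measured 4.94, 5.20, 4.95 and 4.89 in WD-SCC and 6.67, 6.57, 5.40 and 5.43 in PD-SCC. The stages did not overlap, with the OT7 PD-SCC arrays more than 1 log2 unit above those of OT14 and OT15. Rrp1b rose by 1.02 ± 0.24 (adjusted p = 0.048), a call that held in 3 of 15 distinct alternatives. Adjusted over all probe sets, the one used did not pass in limma (adjusted p = 0.058), while its other probe set did (1.25, 0.040). Ebna1bp2, the EBP2 protein of early large subunit particles, measured 6.64, 6.95, 6.01 and 6.43 in WD-SCC and 7.36, 7.37, 6.46 and 6.98 in PD-SCC. The lineages differed more than the stages, so that the OT14 PD-SCC array lay below an OT7 WD-SCC array, and Ebna1bp2 rose by 0.53 ± 0.10 (adjusted p = 0.031). This call held in 2 of 15 distinct alternatives, the difference was 0.19 with cyclic loess, and the dimmer probe set differed by -0.08. Nip7, which acts in late nucleolar steps of large subunit assembly, measured 4.79, 6.60, 5.08 and 5.26 in WD-SCC and 7.11, 6.39, 7.08 and 7.35 in PD-SCC. One OT7 WD-SCC array at 6.60 reached into the PD-SCC range, and the difference of 1.55 ± 0.46 did not pass (adjusted p = 0.083), although it was 2.01 with an adjusted p of 0.016 without that array.

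Pes1, Bop1 and Wdr12 form the PeBoW complex needed for large subunit rRNA processing, and they differed by 0.37, 0.82 and 0.61 with none past the threshold. The nucleolar GTPase Gnl2 differed by 0.67, and its second probe set by 0.86 with an adjusted p of 0.041 over all probe sets. Noc2l (0.46), Nop16 (0.37), the rRNA methyltransferases Ftsj3 (0.36) and Nop2 (0.25), and Noc3l (-0.00) did not pass. For Noc3l the other probe set differed by 1.12 (adjusted p = 0.047 over all probe sets), and the other probe sets of Pes1 (-0.25) and Nop16 (-0.03) had the opposite sign. Of 25 members with several probe sets, 19 had the same sign in all of them.

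The stage differences were also taken within each lineage. The median member difference came to 0.56 for OT7, 0.45 for OT14 and 0.76 for OT15, with 31, 39 and 39 of 42 members above 0 against 42.5%, 51.2% and 42.8% of all genes. Tested within a lineage, with the spread taken from the OT7 arrays alone (2 residual degrees of freedom) and assumed to hold for OT14 and OT15, 6 members passed in OT7, where 9.07% of all genes did in either direction. These were Fbl (0.95), Gar1 (1.23), Tcof1 (1.63), Wdr3 (1.47) and Rrp1b (1.55), higher in PD-SCC, and Nop10, which fell by 1.40. In OT14 none passed (0.842% of genes, lowest adjusted p 0.090), with 1 array per stage. In OT15, again with 1 array per stage, the limit was passed by Nhp2 (2.39, adjusted p = 0.041) and by 1.33% of genes. That value rests on the OT15 WD-SCC array, whose Cd34 RNA goes against its sort label, and without that array the stage difference of Nhp2 over the other lineages was -0.069.

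The difference in stage effect between lineages was tested directly by the interaction of limma, and it passed for no member and for 0.0% of genes (lowest member adjusted p 0.184). At an unadjusted p under 0.05 it held for 6 members (14.3%) and 11.9% of all genes. These were Nhp2, Nop10, Nop14, Rrp1b, Noc2l and Ddx18. With 2 residual degrees of freedom this test resolves little, and the uneven sizes of these 6 members are given as values.

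**Figure D3:**
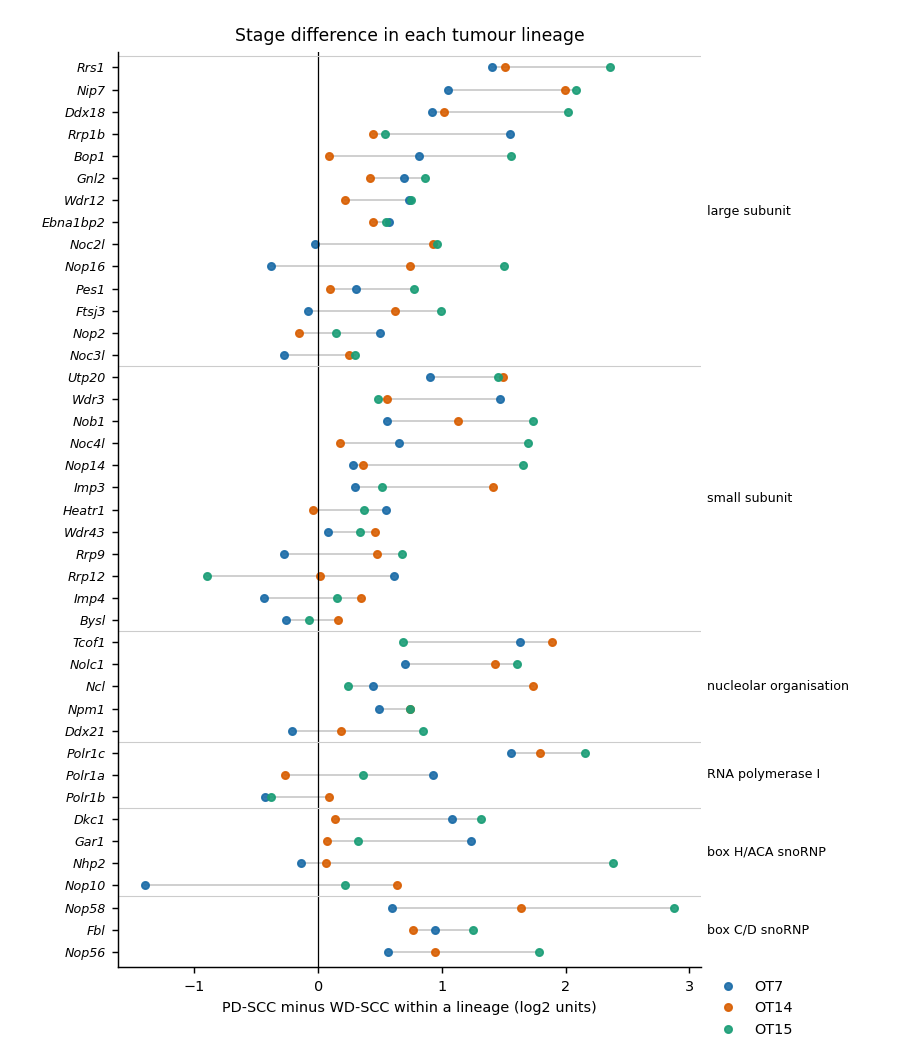
Stage difference of each member within OT7, OT14 and OT15 (log2 units), with a grey line spanning the 3 lineages. Most points lie right of 0, and Nop10 (from -1.40 to 0.63), Nhp2 (up to 2.39) and Nop58 (up to 2.88) show the widest spans.

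Members also differed in level between lineages. OT7 lay above both other lineages in 31 of 42 members (73.8%), against 33.4% of all genes. The limma test of lineage passed for no member and 0.0% of genes (lowest member adjusted p 0.396), while at an unadjusted p under 0.05 it held for 14 members (33.3%) and 7.32% of all genes. Fbl was 0.78 lower in OT14 and 0.86 lower in OT15 than in OT7, and Dkc1 1.09 and 1.43 lower. Polr1c did not follow this order, being 0.69 higher in OT14 than in OT7.

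Array by array, each member was set against its own mean over the 8 arrays. The median deviation was -0.05 and 0.03 on the OT7 WD-SCC arrays, -0.49 on OT14 and -0.68 on OT15. On the PD-SCC arrays it was 0.58 and 0.28 in OT7, 0.01 in OT14 and 0.19 in OT15. Thus the OT14 PD-SCC array stood close to the OT7 WD-SCC arrays, and PD-SCC exceeded WD-SCC within each lineage. On the first OT7 PD-SCC array 40 of 42 members were above their own mean, and on the OT15 WD-SCC array 2 were. The OT15 WD-SCC array, whose Cd34 was below the controls, was the lowest of the 4 WD-SCC arrays in 21 of 42 members, against 21.7% of all genes, and it was the lowest of all 8 in those members (12.8% of all genes). Both OT7 PD-SCC arrays lay above the other PD-SCC arrays in 19 members (45.2%), against 22.1% of all genes. The spread among WD-SCC arrays was wider than among PD-SCC arrays in 26 members (61.9%), a share near the 62.1% of all genes.

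**Figure D4:**
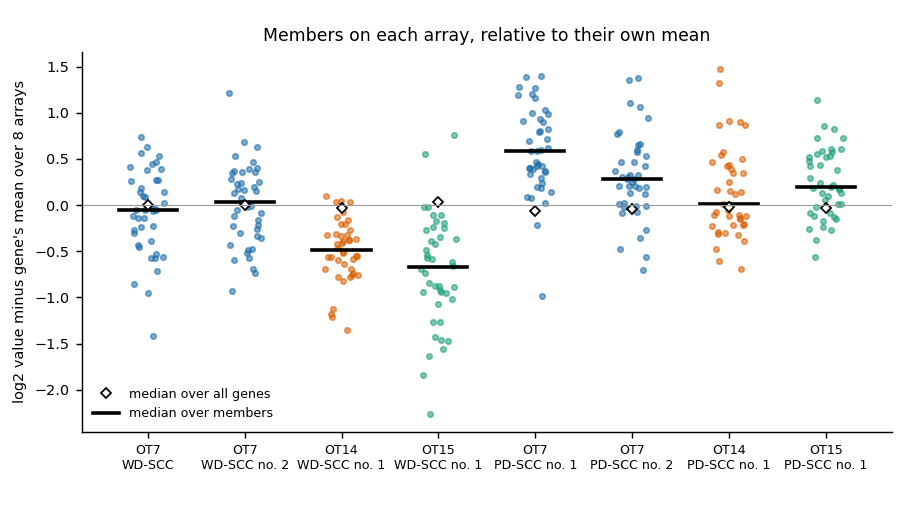
Deviation of each of the 42 measured members from its own mean over the 8 arrays (log2 units) on each array, with the median of the members as a bar and the median of all genes as a diamond. The member medians run from -0.68 on the OT15 WD-SCC array to 0.58 on the first OT7 PD-SCC array, while the medians of all genes stay near 0.

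Other genes of the pathway were counted from separate lists, also chosen with earlier results of these data known. Of 30 measured further small subunit factors 8 rose (26.7%, against 7.78% of all genes) and none fell, and the list's median was 0.53. They included Nol11, a processome protein needed for rRNA transcription and processing (0.95, adjusted p = 0.0072), Krr1 (1.43), Utp23 (0.92) and Utp18 (0.69), the last above the controls on 2 of 4 WD-SCC arrays. Of 39 further large subunit factors 7 rose (17.9%, against 7.78%) and 1 fell (2.56%, against 4.81%), with a median of 0.36. Among them were Rrp1 (0.88, adjusted p = 0.010), the export adaptor Nmd3 (1.13), the P0-like assembly factor Mrto4 (1.36) and Nifk, a partner of the Ki-67 protein (0.97). The gene that fell, named after its value was seen, was Sbds. It acts in the last cytoplasmic step, the release of the anti-association factor from the large subunit, and its difference was -0.76.

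The RNA exosome trims rRNA precursors, and 4 of its 10 measured genes rose (40.0%, against 7.78% of all genes) with a median of 0.84. Dis3, a catalytic subunit, rose by 1.73 (adjusted p = 0.0058) and Exosc8, a ring subunit, by 2.90 (adjusted p = 0.0076). Mphosph6 (0.85), above the controls on 2 of 4 WD-SCC arrays, and Exosc3 (0.50) rose too. Of 63 measured cytoplasmic ribosomal protein genes 7 rose (11.1%, against 7.78% of all genes) and none fell, and the median was 0.18. They included Rpl8 (0.62), Rpl14 (0.82), Rps16 (0.47) and Rps14 (0.61). Of the 63 genes, 61 were above the controls on all 8 arrays. Among all genes above the controls on at least 4 arrays, fitted apart, 16.3% rose. Rpl14 was above the controls on 1 of 4 WD-SCC arrays, so its difference is set against a level near background. These genes have many near-identical pseudogenes, so single values are uncertain.

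The MYC and MAX network was measured because MYC is known to drive this pathway. Myc itself measured 8.58, 9.42, 8.42 and 9.27 in WD-SCC and 9.16, 9.36, 9.68 and 9.96 in PD-SCC. The stages overlapped, and the difference of 0.62 ± 0.26 did not pass the threshold (adjusted p = 0.168). Mycn (-0.24, adjusted p = 0.316) did not pass either, nor did Mycl (-0.12, adjusted p = 0.679), which was above the controls on 1 array. Mxd1, a MAX partner known to oppose MYC and to be high in differentiating epithelial cells, measured 9.76, 10.78, 11.30 and 11.52 in WD-SCC and 7.22, 6.41, 6.69 and 6.08 in PD-SCC. The stages were far apart and Mxd1 fell by 4.24 ± 0.45 (adjusted p = 0.0063). Mlx, the partner of the MondoA and ChREBP proteins, rose by 0.68 (adjusted p = 0.044), and Mxd3 differed by 0.61 (adjusted p = 0.081). In all, 1 of 10 measured network genes rose and 1 fell.

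Proliferation genes were counted as a further list. Of 16 measured, 12 rose and none fell, at a median of 1.84. They included Birc5 (2.19), Ccna2 (3.04), Aurkb (2.42) and Mki67 (1.86), which encodes the Ki-67 protein. The part of proliferation in the members' differences was not tested.

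**Figure D5:**
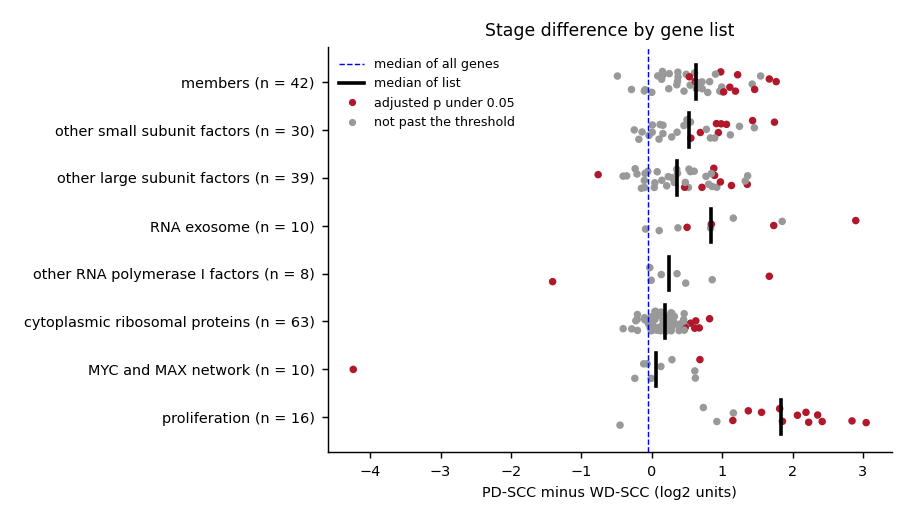
Stage difference (PD-SCC minus WD-SCC, log2 units) of every measured gene of the 8 lists, with the median of each list as a bar and the median of all genes as a dashed line. Points past the adjusted threshold are red, the proliferation list has the highest median at 1.84, and the lowest point of all is Mxd1 at -4.24.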

How the data were processed

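The deposited values are log2 intensities per probe set, and affy and RMA are named for them in the submitters' processing notes; their versions, the chip definition file and the set of arrays normalised jointly were not stated there. Genes were named through the platform annotation and Entrez IDs (99.3% of probe sets with an ID matched RefSeq), and a gene with several probe sets took the one whose mean across all 8 arrays was highest. Of 45141 probe sets 104 were controls, 28898 had 1 gene, 551 several and 15588 none. A value counts as above the controls if it exceeds the highest of 15 unspiked bacterial control probe sets on its array. Arrays have no read depth, and their number limits the precision.

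PD-SCC was compared with WD-SCC in limma 3.58.1 (R 4.3.3; lmFit, eBayes) with the lineage as a block, since the labels pair stages by lineage, and Benjamini-Hochberg adjustment at 0.05. The OT7 WD-SCC array without a replicate number is called the first. The code was tested on simulated data. Alternatives were no block, a random block, OT7 arrays averaged, a paired fit, no dim genes, the mean of probe sets, cyclic loess, 75th percentile scaling, a trended robust prior and leaving out each array. Every member is named. Arrays are given for members past the threshold and the largest other member of each role, the 4 lowest p-values (or fewer) of each other list are named, and Myc, Mycn, Mycl, Itga6, Cd34, Krt5 and Krt14 are named whatever their values. The members and lists were chosen with earlier results of these data known.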

Additional observations from a re-analysis of the deposited data

Results flagged for a closer look

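Among the 4 arrays of a stage, 1 array stood apart from the others by Dixon's test in 7 members. The OT15 WD-SCC array was low for Nhp2 (6.60), Nop14 (5.68) and Rrs1 (6.35). It is also the array on which Cd34 was below the controls. A single OT7 WD-SCC array was high for Wdr3 (4.98 on the first array), Nob1 (6.04 on the array numbered 2) and Nop2 (5.63 on the array numbered 2), and the OT15 PD-SCC array was high for Bysl (5.20). Each of the 42 measured members was tested in both stages, and chance flags about 1 in 20 such groups. Some of the 7 flags can therefore be chance. That rate also assumes that the 4 values come from a single population, whereas the arrays of a stage come from different lineages. The share flagged among all genes is not given here. Of the 7 flagged members only Rrs1 rose, and it also passed without the OT15 WD-SCC array.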

How the results depend on the processing

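No member was lower in PD-SCC under any alternative run. The count of higher members, 10 in the main setting, was 12 without dim genes, 10 with the mean of probe sets, 9 with a trended robust prior and 7 at the 75th percentile. It was 6 without the lineage block and 6 with the lineage as a random block, 5 with cyclic loess, 1 with the OT7 arrays averaged, 1 in the paired fit on lineage differences and 0 with OT14 and OT15 alone (chosen after seeing the data; 21 of 42 members and 21.7% of all genes at an unadjusted p under 0.05). Leaving out 1 array gave 4 to 9, the lowest without the first OT7 PD-SCC array, and 6 without either OT14 or OT15 array or without the other OT7 PD-SCC array. The paired fit equals the averaged one by construction. Over 15 alternatives, identical fits counted once, Polr1c passed 14, Rrs1 13, Utp20 13, Fbl 11, Tcof1 9, Ddx18 8, Npm1 7, Nolc1 5, Rrp1b 3 and Ebna1bp2 2. Other probe sets, adjusted over all probe sets, passed for Fbl, Npm1, Rrp1b and Rrs1. That of Rrs1 had a mean of 3.84 over the arrays, within the 3.61 to 4.37 of the highest unspiked controls. None passed for Polr1c (0.71, adjusted p = 0.076), Ddx18 (1.08 at 0.093 and 0.73 at 0.115), Nolc1 (0.93 at 0.060 and 0.07 at 0.626) and Ebna1bp2. Tcof1 and Utp20 have no other. On that scale the probe sets used for Nolc1 (adjusted p = 0.056) and Rrp1b (0.058) did not pass. The causes were not tested. The member median was 0.31 with cyclic loess and 0.47 at the 75th percentile, which moved the median of all genes to -0.21, and 0.55 to 0.72 leaving out 1 array. The split of all genes was 1331 higher and 823 lower in the main setting, 799 and 930 with cyclic loess, 1150 and 1205 at the 75th percentile, 202 and 199 with the OT7 arrays averaged, and 52 and 194 with OT14 and OT15 alone. Of all genes 1249 were higher without the block, 1301 with the random block and 1345 with the trended robust prior. The number was 1408 with the mean of probe sets and 548 to 958 leaving out 1 array. Further small subunit factors higher, 8 in the main setting, numbered 1 averaged or paired, 5 with cyclic loess, 5 at the 75th percentile, 0 with OT14 and OT15 alone and 1 to 6 leaving out 1 array. Further large subunit factors higher, 7 in the main setting, numbered 0 averaged or paired, 2 with cyclic loess, 4 at the 75th percentile, 0 with OT14 and OT15 alone and 3 to 7 leaving out 1 array. Signs turned only in members that had not passed, except the other probe set of Ebna1bp2 (-0.085). With cyclic loess Ddx21 was -0.23, Pes1 -0.0082, Rrp9 -0.11 and Wdr43 -0.11. With OT14 and OT15 alone Bysl was 0.043, Imp4 0.25, Noc3l 0.27, Nop10 0.42, Nop2 -0.0063 and Rrp12 -0.44. Averaged or paired, Imp4 was 0.020, Noc3l 0.090 and Rrp12 -0.091, and Rrp12 was -0.066 at the 75th percentile. With the mean of probe sets Bysl was 0.13 and Noc3l 0.56. On other probe sets Bysl was 0.37, Noc3l 1.12, Noc4l -0.037 and -0.087, Nop16 -0.028 and Pes1 -0.25. Leaving out 1 array, Bysl ran from -0.22 to 0.071, Ddx21 from -0.078 to 0.38, Imp4 from -0.24 to 0.073, Nhp2 from -0.069 to 0.72, Noc3l from -0.10 to 0.19, Nop16 from -0.0038 to 0.81, Rrp12 from -0.11 to 0.41 and Rrp9 from -0.023 to 0.31.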
